A study of Homo sapiens with 6 samples.

Results

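The genes described here encode the proteins of the mitochondrial ribosome that carry the symbols MRPL, for the large subunit, or MRPS, for the small subunit. They are the 78 rows of the count table, out of 37887 in all, whose symbol is MRPL or MRPS followed by a number and, in the MRPS18 family, a letter. Of these, 49 are MRPL and 29 are MRPS genes. The data were RNA-seq libraries from BT-549, an established line of human triple-negative breast cancer with a mesenchymal phenotype. By the design text, the cells carried a tet-inducible vector for an shRNA against PBRM1, a subunit of the PBAF chromatin remodeling complex. There were 3 shCTL and 3 shPBRM1 libraries. Sample titles describe the former as control shRNA, whereas the treatment labels and the design text give vehicle (0.1% DMSO) for shCTL and doxycycline (DOX, 500 ng/ml) for shPBRM1 libraries of cells with the PBRM1 vector. Silencing of PBRM1 and exposure to DOX therefore cannot be told apart here. If the titles hold, the shRNA vector differed between the groups as well and cannot be told apart either. DOX is a tetracycline, a class of antibiotics known to bind bacterial ribosomes and to inhibit translation in mitochondria.

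The libraries held between 36429395 and 65096297 counts. Levels are given in CPM, which are counts scaled to the library size after TMM normalization. PBRM1 was at 157, 157 and 161 CPM in shCTL and at 43.3, 40.9 and 41.7 CPM in shPBRM1 replicates 1, 2 and 3 (log2 fold change -1.91, SE 0.027, adjusted p = 9.98e-23 by edgeR's quasi-likelihood F-test). The mesenchymal markers VIM, ZEB1 and CD44 were between 130 and 2161 CPM in all libraries. ESR1, PGR and EPCAM were at no more than 0.322 CPM. CDH1 had a mean of 5.002 CPM in shCTL and 1.51 CPM in shPBRM1. Among markers of other cells, CD3E had no count and PTPRC, PECAM1 and CD14 were at or under 0.872 CPM in every library. In such bulk samples, fewer cells with a transcript and less of it per cell cannot be told apart.

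Mitochondria have their own ribosome, which translates the 13 mRNAs of the mitochondrial genome. All of these mRNAs encode subunits of the respiratory chain and the ATP synthase. Its rRNAs are transcribed inside the organelle, but every one of its proteins is encoded in the nucleus, made in the cytosol and imported. Some have a counterpart in the bacterial ribosome, while others arose in the mitochondrial lineage and cover the shortened rRNA. The large subunit joins amino acids and holds the stalk on which translation factors land, and the small subunit reads the mRNA.

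The promoters of these genes are shown first, because a short sequence recurs just after the start of some of them. RefSeq (GRCh38.p14) gave 300 bases around the annotated start, 250 before and 50 after it, for 69 of the 78 genes. The motif AAGATGGC, known as a binding sequence of the transcription factor YY1, was found on either strand in 20 of the 69 promoters (28.99%) and in 2.89% of 34943 promoters of the table. In 15 members (21.7%) it lay after the start and in the direction of the gene, as it did in 1.25% of all promoters. Its letters hold an ATG, and neither it nor its complement is contained in another motif searched. In the 14 of these members with 8 bases to spare on each side, the first base of the motif was base 7 to 24 of the transcript, counted from 1 at the annotated start. In the other, MRPL22, it lay farther on, 35 bases past the first base. The bases GGC directly followed it in 8 of them. The following 24-base windows show it in capitals, 5' to 3' in the direction of the gene, for 5 members that were higher, 1 that was lower and 2 that were not called in shPBRM1 cells.
MRPL51, chr12:6493226-6493249, minus strand: taaggcccAAGATGGCtgtcttcg
MRPS7, chr17:75261890-75261913, plus strand: ggccagccAAGATGGCtgcccccg
MRPL45, chr17:38297173-38297196, plus strand: gcgggaacAAGATGGCagccccca
MRPL20, chr1:1407263-1407286, minus strand: acccgggcAAGATGGCagcggcgc
MRPL42, chr12:93467514-93467537, plus strand: attgaaacAAGATGGCgggttcgt
MRPS30, chr5:44808952-44808975, plus strand: cgcgggcaAAGATGGCggcggcca
MRPS18A, chr6:43687767-43687790, minus strand: ggtttttgAAGATGGCggccctca
MRPL50, chr9:101398580-101398603, minus strand: tctcatcgAAGATGGCggcgcgat

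The other motifs searched, on both strands, were GCGC and TGCGC with any base between them for NRF1, CCGGAAGT for ETS factors such as GABPA, and the CCAAT box. NRF1 and GABPA are known regulators of nuclear genes for mitochondrial proteins. The ETS motif was in 11 members (15.9%) and in 4.11% of all promoters, and the NRF1 motif in 8 members (11.6%) and in 5.74%. CCAAT was in 20 members (28.99%) and in 34.6%. At least 1 of the NRF1, ETS and YY1 motifs was in 32 members (46.4%) and in 11.7% of all promoters. In these shares, as in those of YY1 above, each member counts with 1 promoter. All promoters of the table were not limited to 1 per gene or to tested genes, so the sets are unlike. The ETS match, in capitals and written in the direction of the gene, where ACTTCCGG is the motif on the other strand, stands as follows in 3 members with increases and in MRPS22, which was lower.
MRPL51, chr12:6493367-6493390, minus strand: gctccaaaACTTCCGGcaggcgga
MRPL52, chr14:22829873-22829896, plus strand: ccacgcctACTTCCGGctaccccg
MRPL20, chr1:1407322-1407345, minus strand: ccttcgccCCGGAAGTatcgcagg
MRPS22, chr3:139343906-139343929, plus strand: cccggaagACTTCCGGccctttcc

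Not every promoter held a match. The 250 bases before the start of MRPS14, which was higher, and of MRPL58, which was lower, are given for comparison. Both held none of the 4 motifs, which says only that these letters are not in the window. They are the members with the largest increase and the largest decrease among the 4 called members whose 250 bases hold no annotated exon.
MRPS14, chr1:175023426-175023675, minus strand: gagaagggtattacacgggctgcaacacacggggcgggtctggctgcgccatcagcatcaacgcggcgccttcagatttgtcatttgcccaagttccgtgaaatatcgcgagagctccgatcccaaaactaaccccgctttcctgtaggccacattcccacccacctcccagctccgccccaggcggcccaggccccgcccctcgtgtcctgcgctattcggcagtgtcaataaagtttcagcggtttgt
MRPL58, chr17:75012420-75012669, plus strand: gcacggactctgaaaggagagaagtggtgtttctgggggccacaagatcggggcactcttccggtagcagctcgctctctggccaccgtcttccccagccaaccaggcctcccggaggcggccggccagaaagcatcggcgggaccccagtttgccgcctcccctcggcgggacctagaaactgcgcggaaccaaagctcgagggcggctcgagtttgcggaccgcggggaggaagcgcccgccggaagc

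Mitochondrial ribosomal protein genes were mostly higher in shPBRM1 than in shCTL cells, by small amounts. Of the 77 tested, 45 (58.4%) were higher and 9 (11.7%) were lower in edgeR's quasi-likelihood test (adjusted p under 0.05), and 23 were not called. In the same fit 31.5% of the 15450 tested genes were higher, 33.2% were lower and 64.7% were called in either direction. The increases were between 1.07-fold for MRPS21 and 1.59-fold for MRPL34. The largest change was thus under a fold change of 2, where 2.87% of all genes were higher and 9.68% were lower. The median log2 fold change of the members was 0.19, with a range from -0.29 to 0.67, and that of all tested genes was -0.0080. Values of the groups did not overlap for 52 members (67.5%), a share close to the 68.3% of all tested genes. The member that was not tested, MRPL53, had 0 counts in all 6 libraries, which allows at most between 0.0471 and 0.0804 CPM by counting error. It shares exons on the same strand with CCDC142 in the GENCODE v29 annotation of GRCh38. The bound does not cover reads that fit both genes, whose handling is not given in the sources used here. Absence of the MRPL53 transcript is therefore not shown.

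**Figure D1:**
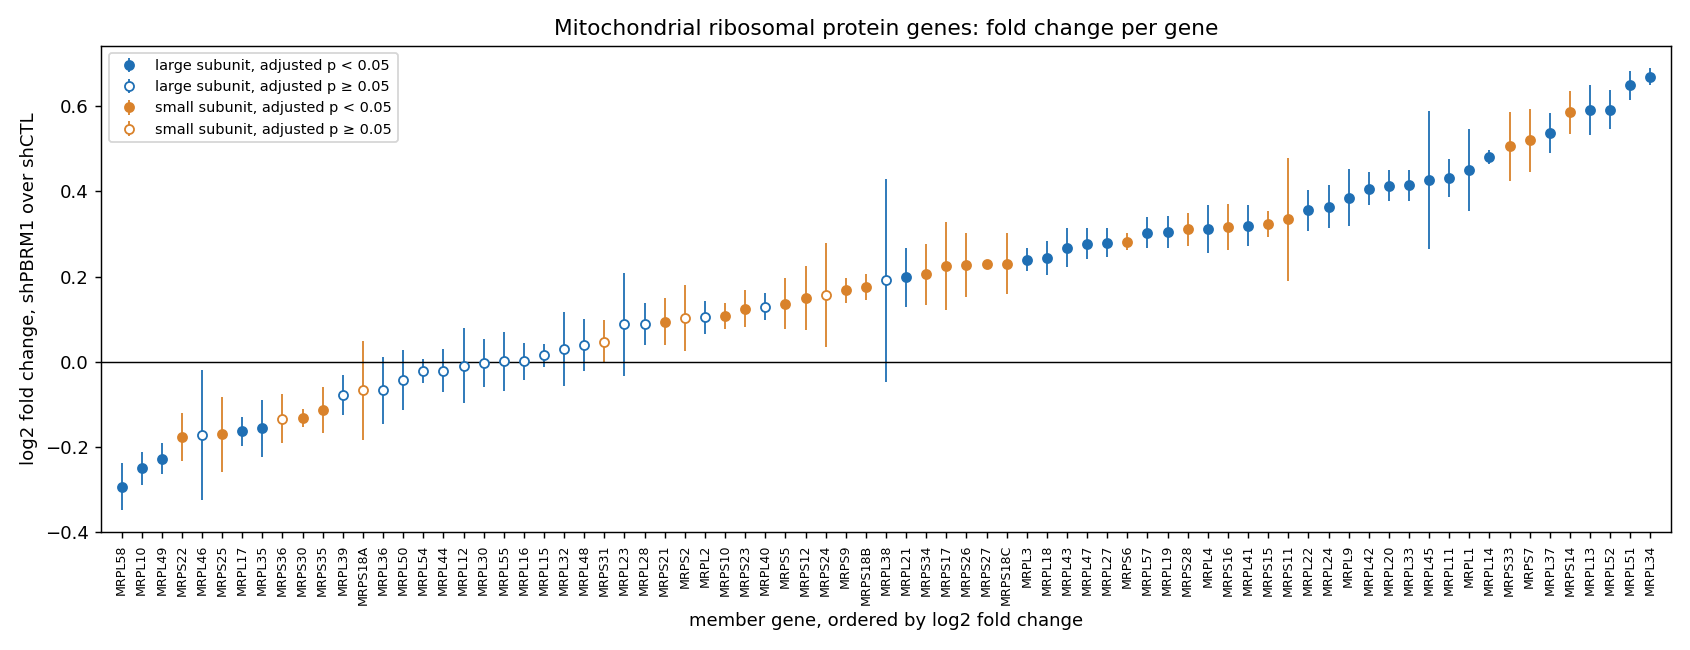
Log2 fold change (y axis) of each of the 77 tested members (x axis, in order of the value), with the standard error from the spread between replicates as bars; blue points are MRPL and orange points MRPS genes, and open points had an adjusted p of at least 0.05. The values run from -0.29 for MRPL58 to 0.67 for MRPL34, with 45 filled points above and 9 below 0.

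In both subunits, more genes were higher than lower. Of the 48 tested MRPL genes, 25 were higher, 5 were lower and 18 were not called, with a median log2 fold change of 0.22. Of the 29 MRPS genes, 20 were higher, 4 were lower and 5 were not called, with a median of 0.17. Without shCTL replicate 1, 13 MRPS genes were higher and 2 were lower, and 2 were also lower without shCTL replicate 3, shPBRM1 replicate 1 or shPBRM1 replicate 2. The medians of the subunits differed by 0.051. Symbols do not fully follow the structure of the ribosome, in which MRPS18A and MRPS30 belong to the large subunit, while MRPS36 is a subunit of the oxoglutarate dehydrogenase complex. With those genes assigned by structure, the medians were 0.19 for each subunit and differed by 0.0049, and 25 of 50 large and 20 of 26 small subunit genes were higher.

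Summed over all members, the level was 2819, 2825 and 2833 CPM in shCTL and 3257, 3298 and 3341 CPM in shPBRM1 replicates 1, 2 and 3, a ratio of means of 1.17. The MRPL genes summed to 1689, 1688 and 1693 CPM in shCTL and to 2014, 2031 and 2058 CPM in shPBRM1, a ratio of 1.204. For the MRPS genes the sums were 1130, 1137 and 1140 CPM in shCTL and 1243, 1267 and 1283 CPM in shPBRM1, a ratio of 1.11. The shPBRM1 sums were thus above all shCTL sums for both subunits. The small over the large sum was 0.669, 0.674 and 0.674 in shCTL and 0.617, 0.624 and 0.624 in shPBRM1, again with no overlap. The sums above follow the symbols. With genes assigned by structure, the ratio of means was 1.186 for the large and 1.139 for the small subunit. These lie closer together than the ratios by symbol. All sums weigh the abundant members most and are given as a description. As a share of raw counts, the members took 0.286% to 0.289% in shCTL and 0.321% to 0.327% in shPBRM1 libraries.

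**Figure D2:**
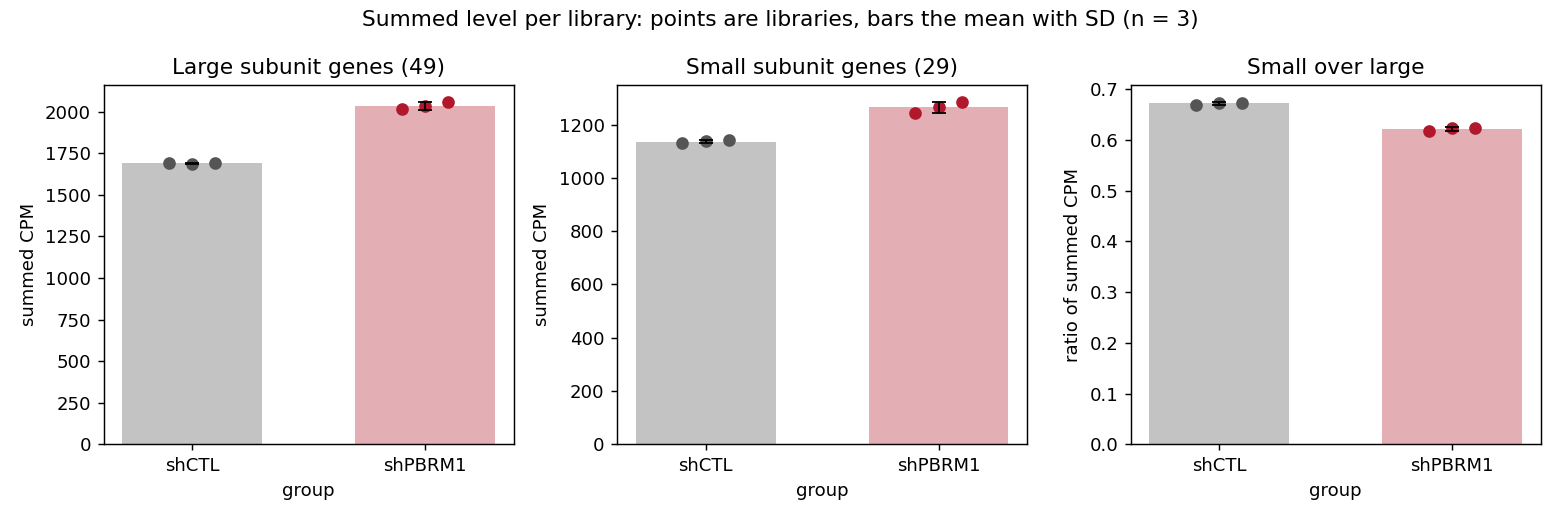
Summed CPM (y axes) of the 49 MRPL genes and of the 29 MRPS genes, and the ratio of the small to the large sum, in each shCTL and shPBRM1 library; points are libraries and bars with error bars are the mean and SD (n = 3). The shPBRM1 points lie above the shCTL points for both sums, and below them for the ratio (0.617 to 0.624 against 0.669 to 0.674).

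The largest increase was in MRPL34, a small protein of the large subunit with a bacterial counterpart, on chromosome 19 from 17292609 to 17306843. It was at 19.7, 20.1 and 20.1 CPM in shCTL and at 31.8, 31.0 and 32.3 CPM in shPBRM1 (log2 fold change 0.67, SE 0.020, adjusted p = 3.65e-10 by edgeR's quasi-likelihood F-test). The groups were far apart relative to their spread. MRPL51, a protein found only in the mitochondrial large subunit, lies on chromosome 12 from 6491886 to 6493841 and carries both an ETS and a YY1 match among the windows above. Its levels were 89.5, 85.9 and 89.5 CPM in shCTL and 133, 142 and 140 CPM in shPBRM1 (log2 fold change 0.65, SE 0.034, adjusted p = 1.46e-13), without overlap. MRPL52, also particular to mitochondria, was at 19.4, 19.9 and 18.8 CPM in shCTL and at 30.3, 27.6 and 29.6 CPM in shPBRM1 (log2 fold change 0.59, SE 0.046, adjusted p = 9.08e-09). MRPL13, the counterpart of a bacterial protein that binds the large rRNA early in assembly, had 53.6, 53.2 and 56.9 CPM in shCTL and 82.7, 77.1 and 86.8 CPM in shPBRM1 (log2 fold change 0.59, SE 0.059, adjusted p = 3.00e-11). All 3 shPBRM1 values of each gene were above its shCTL values.

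Among the other leading large subunit genes, MRPL37, a mitochondria-specific protein and among the most abundant members, was at 128, 126 and 125 CPM in shCTL and at 183, 194 and 174 CPM in shPBRM1 (log2 fold change 0.54, SE 0.047). MRPL14, the counterpart of a protein at the face that meets the small subunit, had the tightest replicates of the leading genes, with 36.06, 36.76 and 36.68 CPM in shCTL and 51.37, 50.004 and 51.45 CPM in shPBRM1 (log2 fold change 0.48, SE 0.016). MRPL1, of the stalk beside the exit site for tRNA, varied more, from 14.2 to 17.3 CPM in shCTL and from 20.4 to 22.9 CPM in shPBRM1 (log2 fold change 0.45, SE 0.097). The adjusted p-values of these 3 genes were 3.18e-11, 1.76e-09 and 1.19e-05.

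In the small subunit, the largest increases were in MRPS14, MRPS7 and MRPS33. MRPS14 was at 13.4, 14.1 and 14.0 CPM in shCTL and at 21.2, 19.4 and 21.5 CPM in shPBRM1 (log2 fold change 0.59, SE 0.051, adjusted p = 7.22e-08). MRPS7, the counterpart of the bacterial protein that starts assembly of the head, was at 27.3, 24.6 and 27.6 CPM in shCTL and at 35.9, 40.7 and 37.8 CPM in shPBRM1 (log2 fold change 0.52, SE 0.074, adjusted p = 7.11e-08). The mitochondria-specific MRPS33 was at 23.5, 22.1 and 25.1 CPM in shCTL and at 31.2, 33.1 and 36.1 CPM in shPBRM1 (log2 fold change 0.51, SE 0.080, adjusted p = 2.90e-07). None of these genes had overlapping groups.

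Several of these genes share exons with a gene on the opposite strand, and whether reads were counted by strand is not given in the sources used here. For MRPL51 that gene is NCAPD2, which had a log2 fold change of 1.04, for MRPL34 it is ABHD8 (0.86) and for MRPS14 it is CACYBP (0.63). MRPL13 overlaps MTBP, which did not pass the test (0.11, adjusted p = 0.123). Of all members, 41 share an exon with another annotated gene and 16 do so on the same strand. Among the 37 tested members without any shared exon, 20 (54.1%) were higher and 6 (16.2%) were lower, with a median log2 fold change of 0.12. The part of reads from neighbors in the increases was otherwise not tested.

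Decreases were smaller than the leading increases. MRPL58 encodes a peptidyl-tRNA hydrolase that has become part of the large subunit and serves in the rescue of stalled ribosomes. It lies on chromosome 17 from 75012670 to 75021261. It fell from 14.8, 15.1 and 15.8 CPM in shCTL to 11.9, 12.1 and 13.2 CPM in shPBRM1 (log2 fold change -0.29, SE 0.055, adjusted p = 0.00122 by edgeR's quasi-likelihood F-test), with no overlap. MRPL49, a mitochondria-specific protein, fell from 49.2, 48.2 and 47.4 CPM to 39.4, 42.3 and 41.9 CPM (log2 fold change -0.23, SE 0.036, adjusted p = 1.42e-04), while FAU, which overlaps it on the opposite strand, rose (log2 fold change 0.49). MRPS30, found in the large subunit despite its symbol, fell from 99.5, 98.5 and 101 CPM to 92.5, 91.7 and 88.9 CPM (log2 fold change -0.13, SE 0.021, adjusted p = 0.00129). MRPL17, the counterpart of a bacterial large subunit protein, fell from 43.6, 45.9 and 43.5 CPM to 38.5, 40.7 and 39.7 CPM (log2 fold change -0.16, adjusted p = 0.00413). With the replicate block and the offsets in GC content and length, MRPL49 (log2 fold change -0.030, adjusted p = 0.578) and MRPL17 (-0.089, adjusted p = 0.0866) lost the call, as did MRPL10, MRPS22 (adjusted p = 0.0738), MRPS25 (0.813) and MRPL35 (0.251). In that fit the median of all tested genes moved from -0.0080 to 0.13, and the part of this shift in the lost calls was not tested. MRPL39 (log2 fold change -0.21, adjusted p = 1.44e-04) and MRPS36 (-0.29, adjusted p = 5.12e-05) were called lower with the offsets and not in the main fit, by the same F-test.

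The remaining decreases were close to the threshold. MRPS22 (log2 fold change -0.18, adjusted p = 0.0104), MRPS25 (-0.17, adjusted p = 0.0389), MRPL35 (-0.16, adjusted p = 0.0478) and MRPS35 (-0.11, adjusted p = 0.0300) each lost the call when single libraries were left out. Without shCTL replicate 3 or shPBRM1 replicate 2, MRPS22 had an adjusted p of 0.0518 or 0.0649. MRPS25 lost its call without shCTL replicate 1, shPBRM1 replicate 1 or shPBRM1 replicate 3, with adjusted p-values of 0.283, 0.170 and 0.0612. MRPL35 lost it without shCTL replicate 2 (adjusted p = 0.322) and without shPBRM1 replicate 1, 2 or 3 (0.0761, 0.0784 and 0.126). MRPS35, whose highest shPBRM1 value, 60.4 CPM, lay above the lowest shCTL value, 59.9 CPM, lost it without shCTL replicate 1 or 3 (0.0633 and 0.0942) and without shPBRM1 replicate 1 or 2 (0.212 and 0.101). The 10 largest increases kept an adjusted p under 0.05 in each of these fits. Some smaller increases lost the call, such as MRPS9 in 5 of 6 fits, MRPS23 in 4, and MRPS5 and MRPS17 in 3 each.

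**Figure D3:**
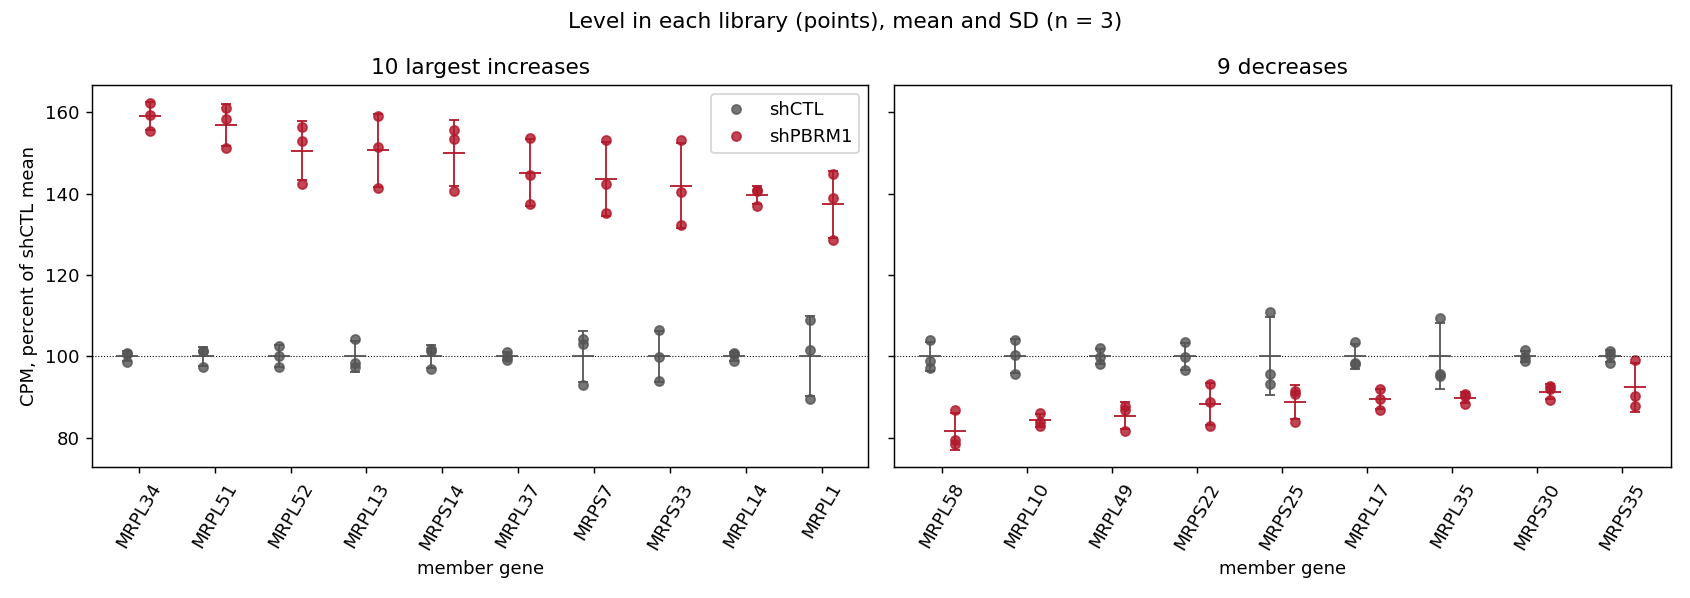
CPM in each library as a percent of the shCTL mean (y axis) for the 10 largest increases and the 9 decreases at an adjusted p under 0.05 (x axes); points are libraries, and horizontal lines with error bars are the mean and SD (n = 3) of shCTL (gray) and shPBRM1 (red). The groups are apart for all increases shown, and they overlap for MRPS35 among the decreases.

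The stalk that recruits translation factors includes MRPL11, MRPL10 and MRPL12. MRPL11, at its base, was at 29.4, 31.8 and 29.03 CPM in shCTL and at 40.8, 39.5 and 41.4 CPM in shPBRM1 (log2 fold change 0.43, SE 0.045, adjusted p = 1.64e-07 by edgeR's quasi-likelihood F-test). MRPL10, which anchors the stalk, fell from 15.4, 16.8 and 16.2 CPM to 13.5, 13.9 and 13.4 CPM (log2 fold change -0.25, SE 0.039, adjusted p = 0.00306). MRPL12, which forms the flexible part of the stalk, was between 9.46 and 9.61 CPM in shCTL and between 8.43 and 10.3 CPM in shPBRM1 (log2 fold change -0.0090, adjusted p = 0.936). The first rose, the next fell and the last had groups that overlapped. With the replicate block and the offsets in GC content and length, the call for MRPL10 was lost (log2 fold change -0.071, adjusted p = 0.360). The median of all tested genes in that fit was 0.13.

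The MRPS18 genes are paralogs whose proteins sit at different places of the ribosome. MRPS18C, the closest to the bacterial protein, was at 9.89, 9.75 and 10.9 CPM in shCTL and at 11.23, 11.97 and 12.69 CPM in shPBRM1 (log2 fold change 0.23, adjusted p = 0.0168 by edgeR's quasi-likelihood F-test). MRPS18B was at 38.2, 40.2 and 38.1 CPM in shCTL and at 43.1, 43.6 and 44.8 CPM in shPBRM1 (log2 fold change 0.17, adjusted p = 0.00239). MRPS18A, of the large subunit, was between 12.2 and 12.8 CPM in shCTL and between 10.4 and 13.7 CPM in shPBRM1 (log2 fold change -0.067, adjusted p = 0.519). The call for MRPS18C was lost without shCTL replicate 1 or 2 or shPBRM1 replicate 3 (adjusted p of 0.0519, 0.0733 and 0.0891). MRPS12, of the decoding center, was at 24.2, 28.5 and 24.7 CPM in shCTL and at 28.2, 29.4 and 28.4 CPM in shPBRM1, so that its groups overlapped (log2 fold change 0.15, adjusted p = 0.0411). Its call was lost without shCTL replicate 1 or 3 (adjusted p of 0.184 and 0.164) and without shPBRM1 replicate 2 or 3 (0.0896 and 0.0717).

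The genes were also grouped by origin. Of 16 small subunit genes with a bacterial counterpart, 14 were higher and 0 were lower by edgeR's quasi-likelihood test, with a median log2 fold change of 0.23. At an unadjusted p under 0.05, 0 were lower, and DESeq2 called 10 higher and 0 lower. The count of higher genes was 7 under scaling by library size only. It was 8 without shCTL replicate 1 and 9 without shPBRM1 replicate 3, and between 11 and 12 without any other library. All 16 had a positive log2 fold change, and MRPS2 and MRPS24 did not pass the test (0.10, adjusted p = 0.112 and 0.16, adjusted p = 0.425). Of 10 mitochondria-specific small subunit genes, 6 were higher and 3 were lower, with a median of 0.15. Of 29 large subunit genes with a bacterial counterpart, 17 were higher and 3 were lower (median 0.24), and of the 21 tested mitochondria-specific ones, 8 were higher and 3 were lower (median 0.039). With the replicate block and the offsets in GC content and length, the genes with a bacterial counterpart had 21 higher and 0 lower in the large and 15 higher and 0 lower in the small subunit, and the mitochondria-specific small subunit genes had 6 higher and 1 lower. The count of lower mitochondria-specific small subunit genes was also 1 without shCTL replicate 1, shCTL replicate 3, shPBRM1 replicate 1 or shPBRM1 replicate 2. The shares higher range from 38.1% to 87.5% without the offsets, beside 31.5% of all tested genes. With the block and the offsets, 43.0% of all tested genes were higher and 24.9% were lower. Without shCTL replicate 1, the higher genes with a bacterial counterpart numbered 8 of 16 in the small and 16 of 29 in the large subunit. Scaled by library size only, they numbered 7 of 16 and 17 of 29, beside 28.1% of all tested genes. The differences between the groups were not tested.

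Per kilobase of exon, the most abundant member was MRPL15, the counterpart of a bacterial assembly protein of the large subunit, at 83.2 CPM per kilobase over the 6 libraries. Its levels were 101, 99.3 and 96.1 CPM in shCTL and 102, 97.3 and 99.6 CPM in shPBRM1, so that the groups overlapped (log2 fold change 0.015, adjusted p = 0.721 by edgeR's quasi-likelihood F-test). MRPL51 and MRPL37 followed at 73.1 and 60.8 CPM per kilobase. Apart from MRPL53, which had no counts, the lowest were MRPL38 at 0.273 and MRPL46 at 0.321 CPM per kilobase. MRPL38 ranged from 0.777 to 1.41 CPM and MRPL46 from 1.804 to 2.519 CPM over the libraries, and neither passed the test. Both share an exon with another gene on the same strand. Relative to all tested genes, members had shorter exon sequence (median 2539 against 4684 bases), a similar GC content (47.6% against 47.9%) and higher levels (median 28.5 against 16.5 CPM). Across the 77 members, which share all libraries, the Spearman correlation of the log2 fold change was 0.028 with exon length, 0.010 with GC content and 0.22 with mean CPM. Across all tested genes these correlations were -0.10, -0.12 and 0.17. The correlation with mean CPM was 0.36 in the MRPL and -0.11 in the MRPS genes.

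Promoter matches were found in members of every call. A YY1 match was in 12 of 42 higher members with an entry (28.6%), in 1 of 7 lower members (14.3%) and in 7 of 19 members that were not called (36.8%). ETS matches were in 7, 1 and 2 and NRF1 matches in 5, 1 and 2 of these groups. The 14 members with a YY1 window after the start, of which 8 windows are printed above, comprised 8 higher members, 1 lower and 5 that were not called. YY1 itself was at a mean of 204 CPM in shCTL and 205 CPM in shPBRM1 (log2 fold change 0.0091, adjusted p = 0.842 by edgeR's quasi-likelihood F-test).

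**Figure D4:**
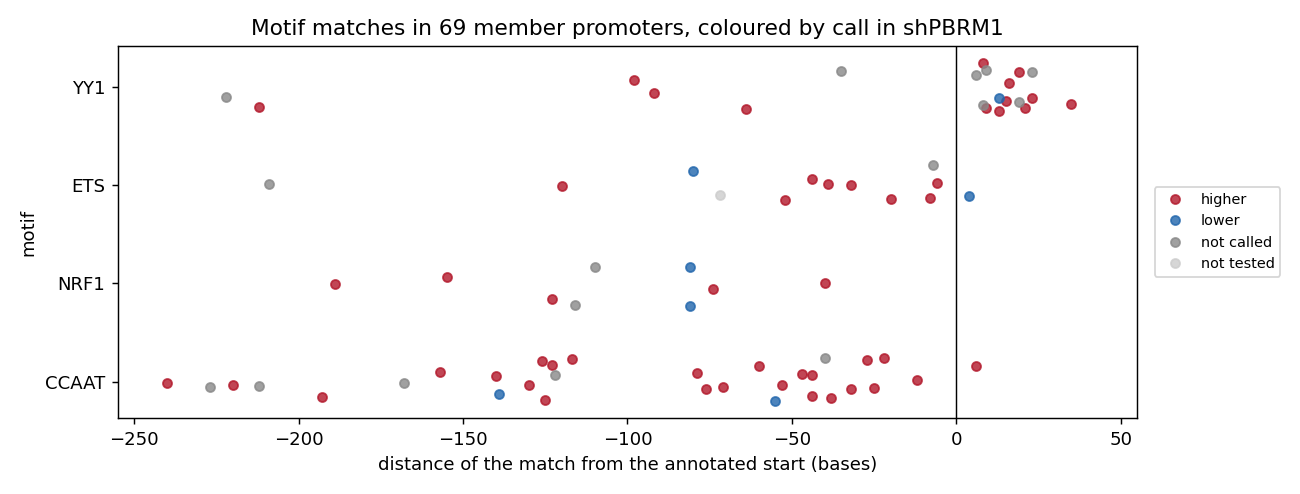
Position of each motif match (x axis, bases from the annotated start) in the 69 member promoters, by motif (y axis, with points spread vertically for legibility), colored by the call of the gene in shPBRM1. The YY1 matches gather just after the start, and higher, lower and uncalled genes lie among each other.

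Ribosomal proteins of the mitochondrion that carry other symbols were higher as well. All 5 tested (DAP3, PTCD3, CHCHD1, AURKAIP1 and GADD45GIP1) were called higher, with a median log2 fold change of 0.35. GADD45GIP1 of the large subunit rose from 28.5 ± 1.39 to 45.8 ± 1.12 CPM (SD, n = 3; log2 fold change 0.68), CHCHD1 of the small subunit from 25.1 ± 0.715 to 38.02 ± 0.572 CPM (0.60), and AURKAIP1 of the small subunit from 81.6 ± 4.23 to 104 ± 6.54 CPM (0.35). The assembly and rRNA modification factors were more mixed, with 12 of 27 higher and 5 lower (median 0.11); with offsets for GC content and length, 16 were higher and 0 lower. MALSU1, which keeps the subunits of a maturing ribosome apart, had the largest increase among them, from 28.6 ± 1.02 to 48.1 ± 1.59 CPM (log2 fold change 0.75), followed by the pseudouridine synthase RPUSD4 (0.54) and the maturation factor RBFA (0.40). Of 16 mitochondrial translation factors and their partners, 6 were higher and 3 were lower, with a median of -0.029. With offsets for GC content and length, 8 were higher and 0 lower, with a median of 0.12, so that each decrease lost its call. In that fit all tested genes had a median of 0.13, with 43.0% higher and 24.9% lower. SLIRP, which stabilizes mitochondrial mRNAs, rose (0.65), as did OXA1L, which inserts new proteins into the inner membrane (0.30), whereas MTFMT, which formylates the initiator tRNA, fell (-0.34).

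Upstream steps were mixed too. Of 12 genes of mitochondrial transcription and RNA processing, 6 were higher and 3 were lower (median 0.13). PNPT1 and SUPV3L1, which together degrade mitochondrial RNA, fell from 142 ± 1.44 to 38.04 ± 2.93 CPM and from 72.6 ± 3.17 to 46.8 ± 1.25 CPM (SD, n = 3; log2 fold changes -1.89 and -0.63). PRORP, the nuclease that trims mitochondrial tRNAs, rose from 3.57 ± 0.401 to 6.81 ± 0.616 CPM (0.93). Among 10 nuclear regulators of mitochondrial genes, 2 were higher and 6 were lower, with a median of -0.15. With offsets for GC content and length, 5 were higher and 4 lower, with a median of 0.047 beside 0.13 for all tested genes. The coactivators PPARGC1A and PPARGC1B fell (log2 fold changes -1.88 and -0.55), as did MYC (-0.50). NRF1 and GABPA rose (0.38 and 0.24), whereas GABPB1 of the same list fell (-0.28).

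The mRNAs that this ribosome translates went the other way. Of the 13 mitochondrially encoded mRNAs, 11 were lower, MT-ND3 was higher (log2 fold change 0.31) and MT-ND2 was not called (0.016), with a median of -0.20. Their sum was 39538, 34055 and 35374 CPM in shCTL and 30129, 31611 and 31589 CPM in shPBRM1, a ratio of means of 0.856. MT-ND6 had the largest decrease (log2 fold change -0.63), followed by MT-ND5 (-0.44) and MT-CO2 (-0.43). With DESeq2 in place of edgeR, 7 of these mRNAs were lower, and in edgeR with offsets for GC content and length beside the replicate block, 12 were lower and 0 higher. Both mitochondrial rRNAs, MT-RNR1 and MT-RNR2, were called higher by edgeR's quasi-likelihood test, with and without the replicate block (main log2 fold changes 4.57 and 4.55, SE 3.07 and 3.05). They varied so much within each group that no change is read from them here. MT-RNR1 had 58, 3593 and 1499 counts in shCTL and 348, 39089 and 96486 counts in shPBRM1, and MT-RNR2 had 108, 4851 and 2398 counts in shCTL and 442, 54265 and 136151 counts in shPBRM1. The groups overlapped for both. The part of this variation in the values of other mitochondrial transcripts was not tested.

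Larger groups of nuclear genes are the nearest points of reference. Of 80 tested cytosolic ribosomal protein genes, 73 were higher and 0 were lower by edgeR's quasi-likelihood test, with 0 lower also at an unadjusted p under 0.05 and by DESeq2, 1 lower with the replicate block and 2 lower under scaling by library size only. Their median log2 fold change was 0.42, with summed levels 1.36 times as high in shPBRM1. RPS21, RPS3A and RPL5 led them (log2 fold changes 0.78, 0.78 and 0.77). Of 80 tested nuclear genes of the respiratory chain, 67 were higher and 1 was lower (median 0.45), or 2 lower with offsets for GC content and length. NDUFA4 and UQCR10 rose most (log2 fold changes 1.008 and 0.875), and COX7A1, a muscle-type subunit at a mean of 1.27 CPM in shCTL, fell (-1.99). The members, at a median of 0.19, thus had 58.4% of their genes called higher beside 91.3% of the cytosolic ribosomal and 83.8% of the respiratory chain genes, and the difference between these lists was not tested.

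**Figure D5:**
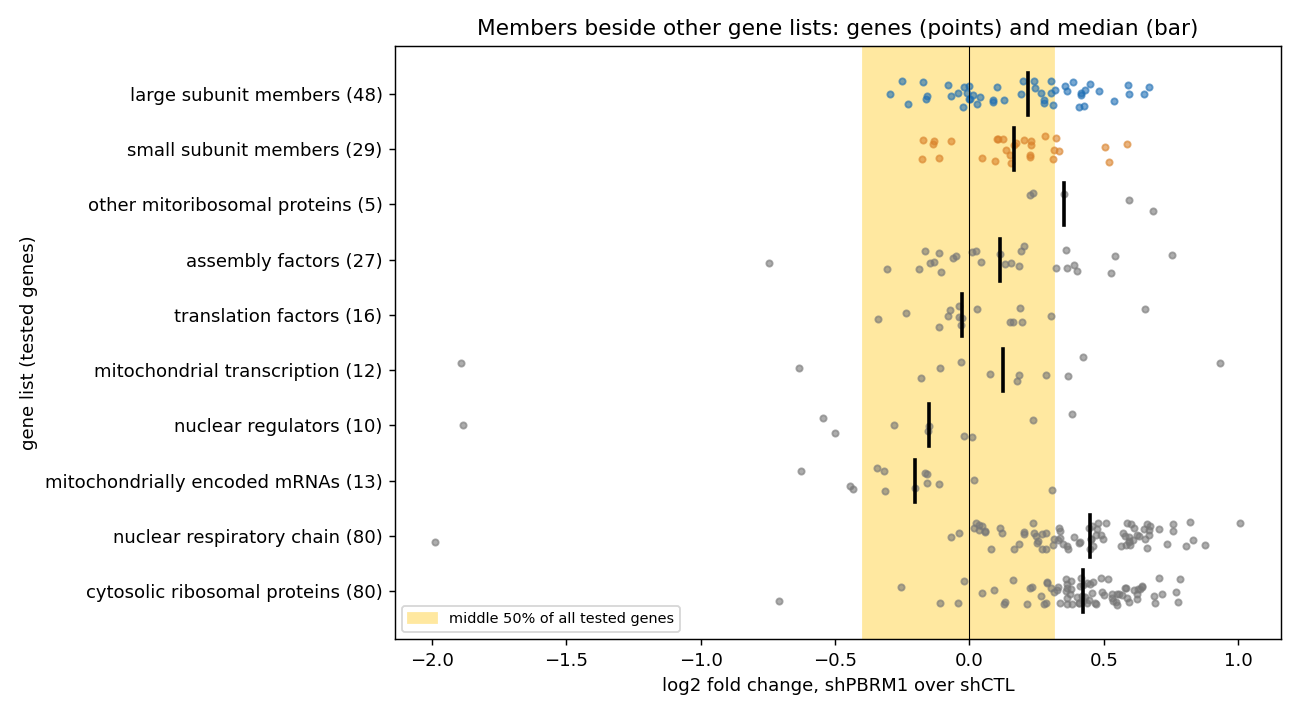
Log2 fold change (x axis) of each tested gene in the members, by subunit, and in the other lists (y axis, number of tested genes in parentheses, points spread vertically for legibility); black bars are medians, and the yellow band is the middle 50% of all tested genes. The mitochondrial rRNAs are left out; medians run from -0.20 for the mitochondrially encoded mRNAs to 0.45 for the nuclear respiratory chain genes, with 0.22 and 0.17 for the large and the small subunit members.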

How the data were processed

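The table the authors deposited holds raw, whole-number counts for each gene symbol in 6 libraries, made with a stranded poly(A) kit. The submitters' processing notes name CASAVA 1.8.2, STAR 2.7.9a, featureCounts, DESeq2 1.24.0 and GRCh38.p7; their settings and strand handling are not given in the sources used here. Groups came from the sample titles. Columns of the control libraries do not say control and were matched by replicate number; the other columns name shPBRM1. Libraries of a group differed by more than sampling noise (chi-square per degree of freedom 4.92 to 24.9); nothing says whether they are separate experiments, so p-values measure the spread between these libraries only. Intervals and floors cover counting error only; the floor was 3 counts.

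Counts were normalized by TMM and tested with edgeR 4.0.16 in R 4.3.3 (filterByExpr, quasi-likelihood F-test, Benjamini-Hochberg adjustment over 15450 genes). The SE was computed from the replicates' log2 CPM (prior count 2). The threshold was an adjusted p under 0.05. Positions, exon overlaps, exon length and GC content are those of GENCODE v29 (GRCh38), matched for all 78 members. Promoters are RefSeq's (GRCh38.p14). Subunit by structure, bacterial counterparts and the other gene lists were assigned from general knowledge of the field. The members and lists were chosen with earlier results of these data known. The genes named are the 10 largest increases and up to 10 decreases among called members, and the 3 highest and lowest per kilobase. Added to these are the MRPS18 paralogs, MRPL10, MRPL11, MRPL12, MRPS12, untested members and up to 3 called genes with the largest change per list. DAP3, PTCD3, YY1, NRF1, GABPA, GABPB1, MT-ND2, MT-ND3 and neighboring genes were named after their values were seen. So were MRPS2, MRPS24, MRPS21, MRPS5, MRPS9, MRPS17, MRPS23, MRPS36 and MRPL39. Tests were first checked on simulated data, where edgeR recovered 86 of 200 genes changed by 1.2-fold, 152 at 1.5-fold and 175 at 2-fold. A member that was not called may thus still have changed by a small amount.

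Replicate numbers in the titles were taken to pair the libraries: in 5622 genes whose mean log2 CPM exceeded 5, deviations from the group means correlated at 0.734, 0.593 and 0.419 for equal numbers, and between -0.671 and 0.464 for unequal ones. The fit with the replicate number as a block called the same 45 members higher and 9 lower. Alternatives were other scalings, DESeq2 1.42.0, other filters and thresholds, the block alone and with offsets for GC content and length, and each library left out. Restriction to members without shared exons was added after the data were seen.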

Additional observations from a re-analysis of the deposited data

How the results depend on the processing

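Under edgeR's RLE factors, library size only, DESeq2, the replicate block, and either no filter on low counts or a minimum mean of 50, between 37 and 45 members were higher. The share of all tested genes that were higher ran from 19.3% with no filter to 36.4% with the minimum mean of 50. With DESeq2 it was 22.7% and with library size only 28.1%. No tested member that was called changed direction in these fits. The replicate block changed no call among the members; in the other lists, it called 1 cytosolic ribosomal protein gene and 4 in place of 3 genes of transcription and RNA processing lower. With the block and offsets for GC content and length, the median of all tested genes moved to 0.13, with 43.0% higher and 24.9% lower; 5 members, of them 2 MRPL, were lower, and the medians were 0.29 for the members, 0.34 for the large and 0.28 for the small subunit, so that the members lay 0.15 above all genes, beside 0.20 without it. Scaled by library size only, the median of all genes was -0.056, the medians of the members and the large subunit 0.14 and 0.17, and 12 MRPS genes were higher; the medians of proteins under other names, transcription and RNA processing, and respiratory chain genes were 0.30, 0.078 and 0.40, and 2 cytosolic ribosomal protein genes were lower. DESeq2 called 2 MRPS genes, 2 assembly factors and 7 mitochondrial mRNAs lower. At an adjusted p under 0.001, 1 member, an MRPL gene, and 0 MRPS genes were lower and 7 MRPS genes higher. Tested against a fold change of 1.2 with glmTreat, 18 members (14 MRPL, 4 MRPS) were higher and 0 lower in either subunit. Past a fold change of 2, 0 were called in either direction, beside 2.87% of all tested genes higher and 9.68% lower. For glmTreat and for an adjusted p under 0.001, the shares of all tested genes are not given here. Without members that share an exon, 20 were higher (12 MRPL and 8 MRPS), 2 MRPS genes were lower, and the medians of the members and of the large subunit were 0.12 and 0.13; fewer genes were counted. The causes of the other differences were not tested. With each library left out, 37 to 43 members were higher and 6 to 8 lower; 13 (without shCTL replicate 1) to 18 MRPS genes were higher and 2 to 4 lower, 2 without shCTL replicate 1 or 3 or shPBRM1 replicate 1 or 2. The members of lowest level that were tested, MRPL38 and MRPL46, were not called; the part of depth in this was not tested.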

Other observations

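Sequence copies of these genes are scattered over the genome as pseudogenes, which the counting kept as rows of their own. In all, 34 members have such a named pseudogene, with 75 rows, 42 of which had no count in any library. Only 4 passed the filter on low counts. MRPL45P2 fell from a mean of 2.23 CPM in shCTL to 1.38 CPM in shPBRM1 (log2 fold change -0.71, adjusted p = 0.00225 by edgeR's quasi-likelihood F-test), while MRPL45 itself rose (log2 fold change 0.43, adjusted p = 0.00264). MRPL37P1 was at means of 0.0687 and 0.259 CPM, with 51 counts over the 6 libraries (log2 fold change 1.77, adjusted p = 0.0176), beside a rise of MRPL37 of 0.54. MRPS31P4 and MRPS31P5 did not pass the test. Reads of a member and its pseudogene can be assigned to either, and the size of this exchange was not tested.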
